A study of Homo sapiens with 4 samples.

Results

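The HOXB cluster was examined in the H3K27ac peak lists of 4 established cancer cell lines: COLO-205 from colon cancer, DU-145 from prostate cancer, and OVCAR-3 and SKOV-3, both from ovarian cancer. H3K27ac is a histone acetylation found at active promoters and enhancers. The genes are the 10 members HOXB1 to HOXB9 and HOXB13, out of 20144 protein-coding genes of GENCODE v44 lifted to GRCh37, the sequence also called hg19 that the peak lists use. All 10 were found by symbol on the minus strand of chromosome 17, and they span chr17:46605888-46806112. Peaks within 50 kb on either side were included, giving the interval chr17:46555888-46856112 of 300225 bp, which held 147 of the peaks in the 4 lists. A promoter peak is a peak that overlaps 1 kb either side of any annotated transcript start of a gene.

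The labels give no treatment or genetic change, and each line gave 1 library, precipitated with the same antibody. With no replicates no difference between lines could be tested, so all comparisons below are descriptions, and intervals cover counting error only. The lines are long-cultured populations, and the peak lists do not tell a mark present in fewer cells from a weaker mark in every cell. Before the results, the labels were set against marker genes. COLO-205 had promoter peaks at CDX2, VIL1 and LGALS4 and at no other of 6 colon genes, OVCAR-3 at 6 of 6 ovarian genes and SKOV-3 at PAX8 and SOX17 but not WT1, MUC16, EMX2 or MSLN. The lists did not separate the tissues. COLO-205 had promoter peaks at 4 of the 6 ovarian genes (PAX8, WT1, EMX2 and MSLN) and DU-145 at 3 (PAX8, MUC16 and MSLN). Of all protein-coding genes, 51.2% had one in COLO-205, 59.9% in DU-145 and 31.6% in SKOV-3, so these counts, and the count in SKOV-3, are near what the background gives over 6 genes. LGALS4 also had one in DU-145 and in OVCAR-3. Of the prostate genes KLK2, KLK3, TMPRSS2 and SLC45A3, DU-145 had promoter peaks at the last pair, and COLO-205 at all 4. The immune genes PTPRC and CD3E had none in any line. Of the stromal genes COL1A1 and PDGFRB, which were read as marks of other cells, COL1A1 had one in DU-145 (−log10 q of 29.3), OVCAR-3 (18.4) and COLO-205 (10.4), and PDGFRB in COLO-205 (8.89). Their part in the results was not tested.

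HOX genes encode homeodomain transcription factors that give cells their position along the body axis. In each cluster the order of the genes follows the order of the body regions where they act, with the anterior members such as HOXB1 at the downstream end and the posterior member HOXB13 at the upstream end, apart from the others. HOXB13 is known for its expression in the prostate and the lower bowel. The anterior genes are known to respond to retinoic acid. The study predicted HOXB13 as a master regulator of COLO-205 and of the prostate line PC-3, which is not examined here. Its rule asked for an enriched motif of the factor and for over-expression of the factor in the line.

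The sequences the results turn on were read from the GRCh37 assembly and are printed 5′ to 3′ on the minus strand, along which the genes are transcribed, except the last, which is on the plus strand. The HOXB13 sequence is shown because this gene had a promoter peak in OVCAR-3 alone. It is 258 bases about the summit of that peak (chr17:46806413-46806670), with motif matches in capitals.
HOXB13 peak in OVCAR-3: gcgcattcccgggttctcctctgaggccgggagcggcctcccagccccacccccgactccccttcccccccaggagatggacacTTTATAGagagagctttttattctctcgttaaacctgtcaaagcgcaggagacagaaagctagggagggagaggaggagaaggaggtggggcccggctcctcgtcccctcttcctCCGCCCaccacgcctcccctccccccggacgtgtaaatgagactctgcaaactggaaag
The next are the strongest promoter peaks of the cluster. In both DU-145 and OVCAR-3 this was the peak over the first exon of HOXB7, which is not printed. In COLO-205 it was a peak upstream of HOXB4 (chr17:46655997-46656296), and in SKOV-3 a peak in the intron of a short HOXB2 transcript (chr17:46619282-46619581).
HOXB4 upstream, COLO-205: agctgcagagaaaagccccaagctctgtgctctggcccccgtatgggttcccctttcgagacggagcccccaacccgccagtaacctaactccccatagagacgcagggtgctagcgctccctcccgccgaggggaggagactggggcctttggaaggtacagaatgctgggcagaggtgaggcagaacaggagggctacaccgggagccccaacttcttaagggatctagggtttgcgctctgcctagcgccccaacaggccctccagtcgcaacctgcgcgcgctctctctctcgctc
HOXB2 intron, SKOV-3: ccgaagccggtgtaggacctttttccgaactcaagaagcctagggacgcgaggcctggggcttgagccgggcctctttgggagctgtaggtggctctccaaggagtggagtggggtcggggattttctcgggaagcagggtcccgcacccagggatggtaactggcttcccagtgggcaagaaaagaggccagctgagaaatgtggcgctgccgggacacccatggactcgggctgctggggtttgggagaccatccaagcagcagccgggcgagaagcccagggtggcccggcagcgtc
The last lies outside every gene, beside HOXB1 (chr17:46560412-46560659), and is 1 of the 2 runs of the interval under a peak in all 4 lines. The 2 matches of the nuclear receptor half-site AGGTCA, read on the other strand, are in capitals.
Flank beside HOXB1: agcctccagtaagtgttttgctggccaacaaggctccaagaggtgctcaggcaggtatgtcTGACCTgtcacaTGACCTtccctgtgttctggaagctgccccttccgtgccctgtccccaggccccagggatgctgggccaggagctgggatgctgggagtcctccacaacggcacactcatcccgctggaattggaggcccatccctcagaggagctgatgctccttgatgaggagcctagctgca

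The SKOV-3 list held 47 peaks in the interval, which covered 27957 bp or 9.31% of it. COLO-205 had more peaks, 58, over fewer bases, 20843 bp or 6.94%. For DU-145 the count was 29 over 17780 bp (5.92%), and for OVCAR-3 it was 13 over 6972 bp (2.32%). Both places of COLO-205 depend on its weaker peaks. At a −log10 q of at least 10 it had 15 peaks over 7681 bp, against 36 in SKOV-3 and 12982 bp in DU-145, and with the 14001 strongest peaks of each list 10 peaks over 5324 bp, against 47 in SKOV-3 and 9730 bp in DU-145. SKOV-3 had the widest coverage, although its list is the shortest, with 14001 peaks against 85576 in COLO-205, 75468 in DU-145 and 76093 in OVCAR-3. Per 1000 peaks of its own list, the interval held 3.36 peaks in SKOV-3, 0.678 in COLO-205, 0.384 in DU-145 and 0.171 in OVCAR-3. SKOV-3 also had the fewest ChIP tags, 22400000 against 29800000 to 36000000 in the other lines.

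Within 1 Mb on either side of the interval, SKOV-3 had 12.4 peaks per Mb, against 157 per Mb inside it, a ratio of 12.7. In COLO-205 the ratio was 2.19 (193 against 88.2 per Mb) and in DU-145 1.23 (96.6 against 78.8 per Mb). In OVCAR-3 the interval was sparser than its surroundings, with 43.3 against 94.7 peaks per Mb and a ratio of 0.457. The local background behind the peaks of the interval, in tags, had a median of 6.3 in COLO-205, 8.05 in DU-145 and 7.72 in OVCAR-3, above the median of each whole list (4.29, 4.95 and 4.19), and of 4.74 in SKOV-3, where the list had 4.95. Its part in the counts was not tested.

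**Figure D1:**
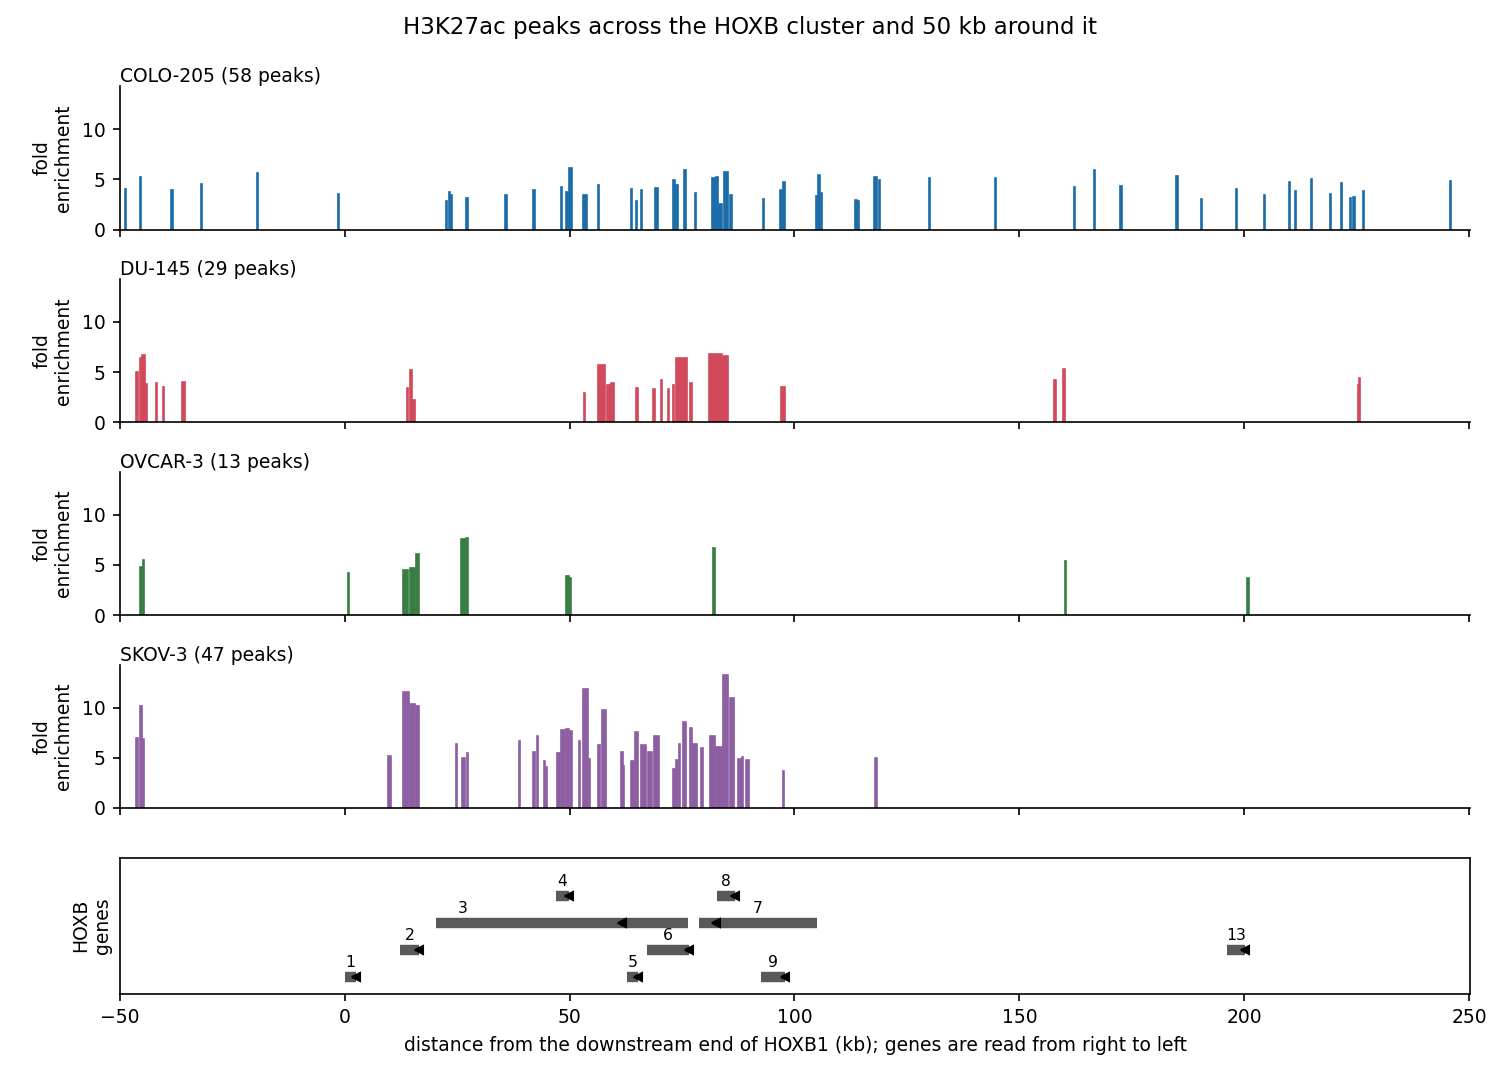
H3K27ac peaks of each line across the HOXB cluster. Each bar is a peak at its position in kb from the downstream end of HOXB1, its height is the peak's fold enrichment over the local background, bar edges have a fixed line width so that narrow peaks stay visible, and the lowest panel draws the genes with an arrowhead at the representative start. SKOV-3 has 43 peaks between HOXB1 and HOXB9 and none from HOXB13 on, while the 58 COLO-205 peaks reach both ends of the interval and leave a gap of 23826 bp over HOXB1 and HOXB2.

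At the promoters, 7 of the 10 members had a peak in COLO-205, where 51.2% of all protein-coding genes had one. In DU-145 it was 7 of 10 against 59.9%, in OVCAR-3 5 of 10 against 60.5% and for SKOV-3 8 of 10 against 31.6%. The shares in OVCAR-3, DU-145 and COLO-205 lie within 2 genes of what the background share gives over 10 genes at this setting, and SKOV-3 is the line in which the members stood furthest from it. With 1 representative transcript per gene, DU-145 had 4 of 10 against 56.1% of all genes, below the background share instead of above it. At a −log10 q of at least 10, COLO-205 had 6 of 10 against 31.7% and OVCAR-3 3 of 10 against 55.3%, and with the 14001 strongest peaks of each list COLO-205 had 6 of 10 against 21.8%, all further from the background. HOXB3 and HOXB7 had a promoter peak in all 4 lines. HOXB2, HOXB4, HOXB5, HOXB6, HOXB8 and HOXB9 had one in 3 lines, HOXB13 in 1 and HOXB1 in 0. HOXB3 had none in OVCAR-3 with windows of 500 bp, and with 1 representative transcript per gene it had one in SKOV-3 alone. Of all protein-coding genes, 25.2% had a promoter peak in all 4 lines, 18.0% in 3, 16.5% in 2, 15.4% in 1 and 24.9% in 0. Promoter windows of the members cover a median of 2958 bp, less than the 4584.5 bp over all genes, because windows grow with the number of annotated starts.

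For each member the strongest promoter peak was taken as the one with the highest −log10 q, the significance given by the authors' peak caller. Among all genes with a promoter peak in a line, the members' strongest peaks had a median percentile of −log10 q of 87.7 in SKOV-3, 67.3 in COLO-205, 63.0 in DU-145 and, lowest, 28.6 in OVCAR-3. These percentiles describe only members that had a peak. The number of fragments over a summit was recovered from the deposited values. It is given as the summit level, in fragments per 1000000 ChIP tags of the library, with its exact Poisson 95% interval in parentheses. The level includes the local background and is not adjusted for fragment length.

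HOXB1, the most anterior member, had no promoter peak in any list. Its nearest peak lay 1457 bp from its main start in OVCAR-3, within the gene, and 3726 bp away in COLO-205, 7217 bp in SKOV-3 and 11348 bp in DU-145. HOXB1 is thus the member without a listed promoter peak at the 0.001 q-value threshold, which does not show that the mark was absent there.

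HOXB2, a regulator of hindbrain identity, had no promoter peak in COLO-205, where the nearest peak was 6003 bp away. Its strongest peak reached 11.5-fold enrichment in SKOV-3 (−log10 q of 51.5), against 6.07 in OVCAR-3 (22.8) and 5.19 in DU-145 (19.1). The summit level was 3.35 (2.63 to 4.2) for SKOV-3, 1.49 (1.11 to 1.96) for OVCAR-3 and 1.42 (1.05 to 1.86) for DU-145. The SKOV-3 interval does not overlap those of DU-145 and OVCAR-3, which overlap each other. These 3 peaks lie at different places of the gene, so the levels do not compare 1 site between lines. In DU-145 none of the 2001 bp around the main start of HOXB2 lay under a peak, and its 3 promoter peaks were at the starts of shorter transcripts and none was left with protein-coding transcripts only, whereas 36.7% of these bases were covered in SKOV-3 and 35.4% in OVCAR-3. The 1258 bp SKOV-3 peak chr17:46618824-46620081 is the widest of the interval in that line, and its center is the HOXB2 intron sequence printed above.

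HOXB3 has 13 annotated transcripts with 12 different starts, so its windows cover 15962 bp and pass through several neighbouring genes. Its strongest peak reached 11.8-fold enrichment in SKOV-3, with a summit level of 3.21 (2.51 to 4.05). OVCAR-3 followed with 7.57-fold and a level of 1.9 (1.47 to 2.42), then DU-145 with 6.44-fold and 1.64 (1.25 to 2.11), and COLO-205 with 6.15-fold and 1.71 (1.27 to 2.25). SKOV-3 was again the highest, with an interval above the other 3. These peaks lie at 4 different places, and the 1 kb around the representative start of HOXB3 held a peak in SKOV-3 alone, covering 24.7% of it. With 1 representative transcript per gene the SKOV-3 enrichment was 5.53, and with protein-coding transcripts only that of DU-145 was 2.96.

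HOXB4, known for its action in blood stem cells, had no promoter peak in DU-145, where the nearest lay 3406 bp away. In COLO-205 its strongest peak was chr17:46655849-46656326 (6.15-fold), whose −log10 q of 22.3 is the highest of the interval in that line. The same peak is also the strongest for HOXB3. The enrichment was 3.9-fold in OVCAR-3 and 7.68-fold in SKOV-3, with summit levels of 1.02 (0.713 to 1.42) and 2.14 (1.58 to 2.84), against a level of 1.71 (1.27 to 2.25) in COLO-205. Only the OVCAR-3 and SKOV-3 intervals do not overlap, and they come from different peaks, chr17:46655156-46655677 and chr17:46655867-46656447. Peaks covered 47.0% of the 1 kb windows in COLO-205, 38.3% in OVCAR-3 and 60.4% in SKOV-3.

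HOXB5 and HOXB6, in the middle of the cluster, had a promoter peak in every line but OVCAR-3, where the nearest were 15048 and 5311 bp away. HOXB5 had a fold enrichment of 7.6 in SKOV-3, 3.9 in COLO-205 and 3.39 in DU-145, with summit levels of 2.63 (2.01 to 3.4), 0.94 (0.624 to 1.36) and 1.31 (0.959 to 1.74). For HOXB6 the fold enrichment was 8.59, 5.94 and 6.44 in the same order of lines, with summit levels of 2.32 (1.73 to 3.04), 1.31 (0.931 to 1.79) and 1.64 (1.25 to 2.11). SKOV-3 was the highest for both genes, with an interval that lies above both others for HOXB5 and overlaps both for HOXB6. The strongest HOXB5 peak of COLO-205 lies upstream of the start, and those of DU-145 and SKOV-3 lie inside the gene. The HOXB6 peak of DU-145 is 2461 bp wide and is also the strongest HOXB3 peak of that line.

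HOXB7, which is often described in breast and colon tumors, had a promoter peak in all 4 lines. Its strongest peak was enriched 7.2-fold in SKOV-3, 6.77-fold in DU-145, 6.66-fold in OVCAR-3 and 5.13-fold in COLO-205. The summit levels were 2.77 (2.12 to 3.55), 2.78 (2.26 to 3.38), 2.28 (1.8 to 2.85) and 2.01 (1.54 to 2.59) in the same order, and all 4 intervals overlap. With peaks less than 350 bp apart merged, or with 2 kb on either side of a start, the HOXB7 value of SKOV-3 was 13.2, the value of the HOXB8 peak, so the closeness of the 4 lines holds for the 1 kb windows and the peaks as deposited. The 4 summits lie in the coding part of the first exon, and the stretch chr17:46687659-46688284 of 626 bp was under a peak in every line. In DU-145 the peak is 2866 bp wide (chr17:46686789-46689654), covers 100% of the 1 kb windows around the main start and has a −log10 q of 46.4, the highest of the interval in that line. Coverage of the same windows was 84.6% in COLO-205, 31.7% in OVCAR-3 and 92.1% in SKOV-3. COLO-205 had 6 HOXB7 promoter peaks, of which those at chr17:46710781-46711062, chr17:46711186-46711588 and chr17:46711849-46712099 lie at a distant second start and were overlapped by no peak of another line.

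HOXB8 and HOXB9, at the posterior end of the compact part, differed from each other in SKOV-3. HOXB8 had a fold enrichment of 5.75 in COLO-205, 6.59 in DU-145 and 13.2 in SKOV-3, the highest of all peaks in the interval, with summit levels of 1.28 (0.902 to 1.75), 1.64 (1.25 to 2.11) and 2.95 (2.28 to 3.75), the last above the intervals of the others. For HOXB9 COLO-205 was the highest, with a fold enrichment of 4.71 against 3.48 in DU-145 and 3.69 in SKOV-3, and with summit levels of 1.71 (1.27 to 2.25), 1.42 (1.05 to 1.86) and 1.12 (0.722 to 1.65), whose intervals overlap. Within the SKOV-3 list, the HOXB8 peak stood at percentile 97.7 of promoter −log10 q and the HOXB9 peak at percentile 5.47. The summits of these HOXB8 peaks lie in an untranslated part of a HOXB8 exon, within 1 kb of another annotated start but not of the main start. Of the 1 kb windows around the main start of HOXB8, peaks covered 55.7% for SKOV-3, 13.6% for COLO-205 and 0% for DU-145. With 1 representative transcript per gene the HOXB8 enrichment was 10.9 for SKOV-3 and 3.44 for COLO-205, and DU-145 had no HOXB8 promoter peak. Neither gene had a promoter peak in OVCAR-3.

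**Figure D2:**
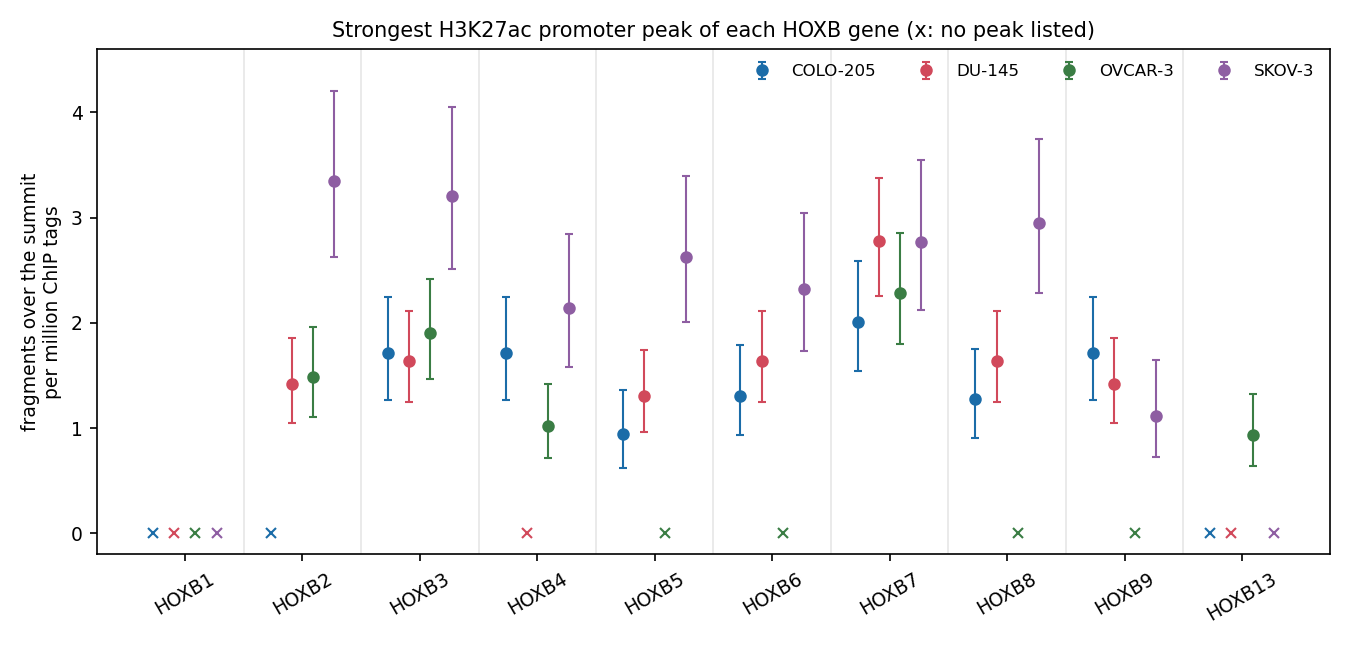
Strongest promoter peak of each HOXB gene in each line, as the summit level in fragments per 1000000 ChIP tags (y axis). Points are single libraries, bars are exact Poisson 95% intervals for counting error only, and a cross at 0 stands for no listed peak, not for a measured 0. The points of a gene can come from peaks at different places. The SKOV-3 point is the highest from HOXB2 to HOXB6 and at HOXB8, with a bar that clears the others at HOXB2, HOXB3, HOXB5 and HOXB8 and overlaps 1 or more of them at HOXB4 and HOXB6. All bars overlap at HOXB7, and HOXB13 has a point in OVCAR-3 alone.

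HOXB13 had a promoter peak in OVCAR-3, chr17:46806417-46806993, and in no other line. It is 577 bp wide and begins 305 bp upstream of the start, with its summit 408 bp upstream, outside any gene. Its fold enrichment was 3.67 and its −log10 q 8.28, with 32 fragments over the summit against a local background of 7.99, or a summit level of 0.936 (0.64 to 1.32). This was percentile 5.64 of promoter −log10 q in OVCAR-3, so the peak is among the weakest at promoters of that line. It passed at a −log10 q of 5 and with tags scaled to SKOV-3. It did not pass at a −log10 q of 10 and was not among the 14001 strongest peaks of the OVCAR-3 list.

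In COLO-205 the nearest peak to the HOXB13 start was 1867 bp away and inside the gene (chr17:46803982-46804245), over the untranslated part of its last exon, enriched 4.01-fold at a −log10 q of 6.72. With 2 kb on either side of the start, HOXB13 would thus count in COLO-205 as well. In DU-145, the prostate line, the nearest peak lay 24982 bp away, and in SKOV-3 81828 bp away. Within 12 kb of the start COLO-205 had 5 peaks over 1253 bp, OVCAR-3 had the promoter peak only, and DU-145 and SKOV-3 had 0. The COLO-205 peaks had −log10 q values of 4.57 to 9.54, so none would pass at 10. The distance of 12 kb was not one of the planned settings. In all, 933 protein-coding genes (4.63%) shared the pattern of HOXB13, a promoter peak in OVCAR-3 alone. Over the 4 within-line percentiles of promoter −log10 q, with 0 for genes without a peak, IGSF10, MAP3K15, TMEM86A, ADRA2A and AKAP4 were nearest to HOXB13, at Euclidean distances of 0.0149 to 0.0521 percentile points. These percentiles run over all genes, where HOXB13 stood at 42.9 in OVCAR-3, and not over genes with a peak as above. The other 3 percentiles are 0 for all of these genes, so the likeness is a near tie in 1 value, the −log10 q in OVCAR-3.

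The printed sequences were searched on both strands for 6 motifs, which were CCAATAAA (HOX13), TTTATNG (CDX), TGATTNAT (HOX-PBX), TGANTCA (AP-1), AGGTCA (nuclear receptor half-site) and GGGCGG (SP/KLF). Among the 300 bases upstream of the 20144 protein-coding genes, 0.973%, 9.17%, 2.23%, 5.76%, 12.3% and 60.4% hold these motifs, in that order. The HOXB13 peak sequence holds 1 match of TTTATNG and 1 of GGGCGG, the latter on the other strand. Of windows of 258 bases around the summit of every OVCAR-3 peak, 4.02% hold TTTATNG and 23.2% hold GGGCGG. The COLO-205 and SKOV-3 sequences printed above hold none of the 6. These matches are letters in a window and not measured binding sites.

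Around the summits of all peaks of the interval, TTTATNG was found in 10.3% of 58 windows of 300 bases in COLO-205, 10.3% of 29 in DU-145, 10.6% of 47 in SKOV-3 and 7.69% of 13 in OVCAR-3. Over every peak of the lists the shares were 4.25%, 5.86%, 3.48% and 5.33% in the same order. CCAATAAA was found in none of the windows of the interval, and in 0.243% to 0.445% of all peaks. GGGCGG was found in 41.4% of the windows of the interval in COLO-205, 17.2% in DU-145, 34.0% in SKOV-3 and 38.5% in OVCAR-3, against 28.4%, 23.6%, 45.3% and 25.3% over every peak, so it was above the list's share for COLO-205 and OVCAR-3 and below it for the others. TGANTCA was in 3.45%, 6.9%, 6.38% and 7.69% of the windows, against 4.58%, 6.79%, 4.69% and 6.35%. TGATTNAT was in 1 window of COLO-205 and in 0 of the other lines. Peaks of different lines overlap and TTTATNG was found in 1 to 6 windows a line, so no test was made.

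Along the chromosome, the lines differed in where the mark lay. From HOXB5 to HOXB9, a segment of 35102 bp, peaks covered 1.81% in OVCAR-3, against 40.3% for SKOV-3, 26.9% for DU-145 and 21.3% for COLO-205. This segment held 50.6% of all bases under peaks of the interval in SKOV-3, 53.1% in DU-145 and 35.9% in COLO-205. In OVCAR-3 it held 9.11%, and the segment from HOXB1 to HOXB4 held 68.2%. That anterior segment was covered to 9.55% in OVCAR-3, 16.7% in SKOV-3, 5.52% in COLO-205 and 2.17% in DU-145. OVCAR-3 was thus marked at the anterior end and, apart from HOXB7 and the HOXB13 promoter, at no start from HOXB5 on.

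Between HOXB4 and HOXB5 lies a stretch of 12906 bp made up mostly of HOXB3 introns, with untranslated HOXB3 exons and its representative start, of which 1.9% was under peaks in OVCAR-3, against 31.6% for SKOV-3, 23.4% for DU-145 and 12.3% for COLO-205. DU-145 had there a peak of 1667 bp (chr17:46662190-46663856) enriched 5.67-fold (−log10 q of 28.2), within 1 kb of no member's start. SKOV-3 had peaks over the same place, at chr17:46662170-46662725 and chr17:46663116-46663911, with fold enrichments of 6.27 and 9.79. In COLO-205 a peak of 214 bp (chr17:46662285-46662498) with a fold enrichment of 4.46 overlapped it.

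**Figure D3:**
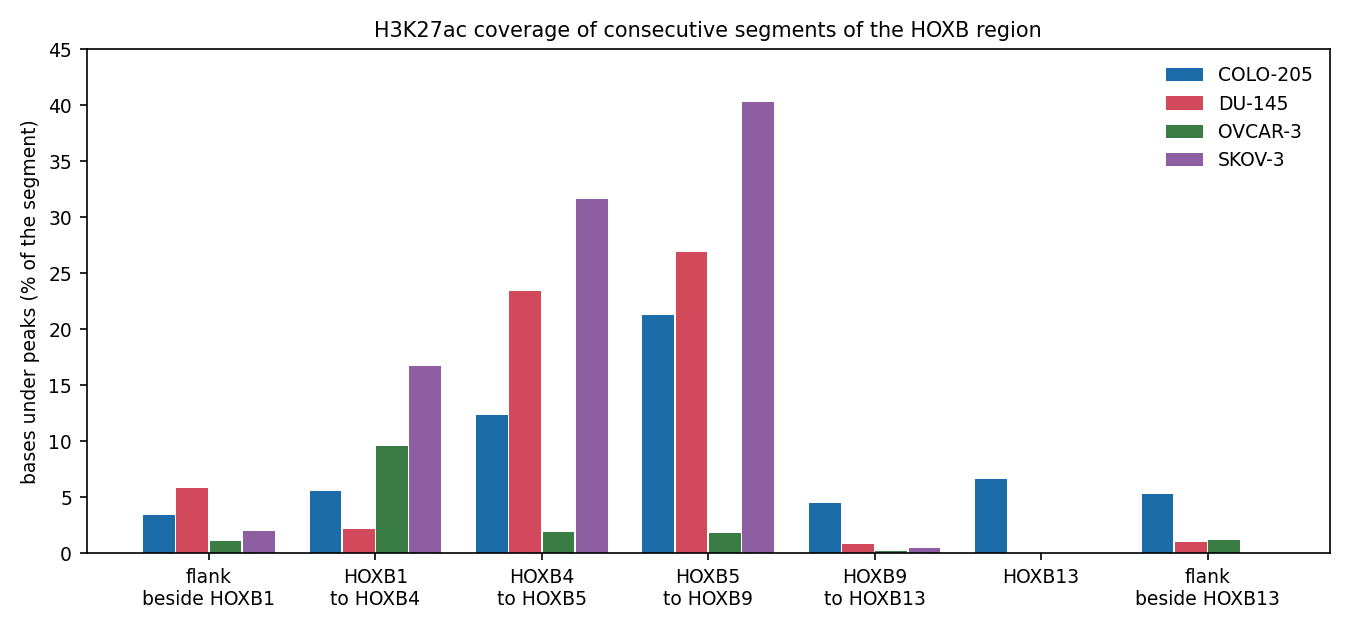
Percent of each consecutive segment of the HOXB interval that lies under H3K27ac peaks, with the segments in chromosome order and 1 bar per line. Coverage is highest from HOXB5 to HOXB9 in SKOV-3 (40.3%), DU-145 (26.9%) and COLO-205 (21.3%), and from HOXB1 to HOXB4 in OVCAR-3 (9.55%).

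The 98404 bp between HOXB9 and HOXB13, which hold the long non-coding genes LINC02086 and LINC03057, were marked mainly in COLO-205, with 14 peaks over 4.49% of the segment. DU-145 had 2 peaks, and OVCAR-3 and SKOV-3 had 1 each. The COLO-205 peaks had fold enrichments of up to 5.9, at chr17:46772434-46772678. The highest −log10 q, 18.7, was at chr17:46723598-46724264 in an exon of LINC03057, with a fold enrichment of 5.25. The SKOV-3 peak (chr17:46723825-46724284) lies over the same exon, enriched 4.95-fold (−log10 q of 11.4). The DU-145 peaks (chr17:46763686-46763985 and chr17:46765685-46766066) and the OVCAR-3 peak (chr17:46766131-46766340) had fold enrichments of 4.26, 5.34 and 5.4 and overlapped no peak of another line. Their −log10 q values of 6.92, 9.4 and 8.26 would not pass at 10. In the 50 kb beyond HOXB13, COLO-205 had 10 peaks, DU-145 2, OVCAR-3 the promoter peak and SKOV-3 0. The highest −log10 q there was 9.54 in COLO-205, 8.28 in OVCAR-3 and 8.12 in DU-145, so none of these peaks would pass at 10.

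Of the 17 other genes with a start in the interval, 11 had a promoter peak in at least 1 line: 10 for COLO-205, 5 for SKOV-3, 3 for DU-145 and 1 for OVCAR-3. HOXB-AS1 had one in every line but COLO-205, with the same fold enrichments as HOXB2 because they share the peaks. HOXB-AS3, which lies across the middle of the cluster, had 5 peaks in COLO-205, 4 in DU-145, 10 in SKOV-3 and 0 in OVCAR-3, and the unnamed non-coding gene ENSG00000257178 had them in the same 3 lines. LINC02086 and LINC03057 had one in COLO-205 and SKOV-3. MIR196A1, COX6B1P2, RPL9P28, ENSG00000242407, ENSG00000244559 and a Y_RNA gene had one in COLO-205 alone. HOXB-AS2, HOXB-AS4, MIR3185, RN7SL125P and the prostate-linked genes PRAC1 and PRAC2 next to HOXB13 had none in any line. ChIP-seq carries no strand, so a peak near the starts of a HOXB gene and its antisense partner was counted for both and cannot be assigned to either.

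When the peaks of the 4 lists were joined wherever they overlapped by at least 1 bp, the interval held 93 blocks. Of these, 66 came from 1 line, 11 from 2, 14 from 3 and 2 from all 4 lines. COLO-205 alone gave 34, SKOV-3 16, DU-145 13 and OVCAR-3 3. These counts are not set against all peaks of the lists, so whether they are particular to the interval was not tested. The 2 blocks of all lines hold the HOXB7 stretch and the flank site printed last. At the flank site the peak was enriched 10.2-fold in SKOV-3, 6.42-fold in DU-145, 5.27-fold in COLO-205 and 4.79-fold in OVCAR-3, with summit levels of 2.37, 1.69, 1.31 and 1.17. By bases, 29117 bp were under a peak in 1 line, 10709 bp in 2, 6507 bp in 3 and 874 bp in 4.

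OVCAR-3 and SKOV-3, the ovarian lines, shared 5790 bp, which is 83.0% of the OVCAR-3 bases and 20.7% of the SKOV-3 bases. DU-145 and SKOV-3 shared 55.8% of the DU-145 and 35.5% of the SKOV-3 bases. For COLO-205 and SKOV-3 the shares were 47.8% and 35.6%, and for COLO-205 and DU-145 27.7% and 32.5%. OVCAR-3 shared 27.4% of its bases with COLO-205 and 30.5% with DU-145, which are 9.15% and 11.9% of theirs. SKOV-3 covers more of the interval than any other line, which raises each line's share with it. No shares over the whole lists are set beside these, so whether any pair is closer here than elsewhere was not tested.

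**Figure D4:**
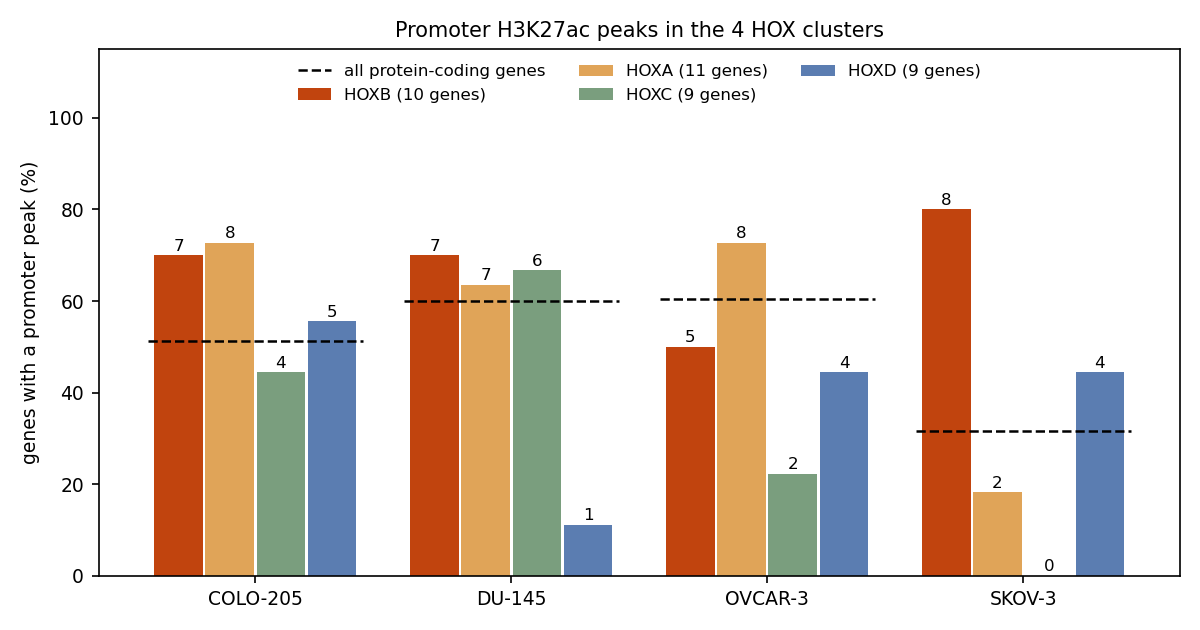
Percent of the genes of each HOX cluster with an H3K27ac promoter peak, by line. Numbers over the bars are gene counts and the dashed line is the percent of all protein-coding genes. In SKOV-3 the HOXB bar (8 of 10) is above the dashed line and the HOXA and HOXC bars (2 of 11 and 0 of 9) are below it, while the HOXD bar (4 of 9) is above it too. Each bar rests on 9 to 11 genes.

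In the other HOX clusters, read the same way, SKOV-3 had promoter peaks at 2 of 11 HOXA, 0 of 9 HOXC and 4 of 9 HOXD genes, beside 8 of 10 HOXB genes. OVCAR-3 had them at 8 HOXA, 2 HOXC and 4 HOXD genes beside 5 HOXB genes, and its HOXA peaks reached a fold enrichment of 21.1 at HOXA5, above every HOXB value. COLO-205 had 8 HOXA, 4 HOXC and 5 HOXD genes, and DU-145 had 7, 6 and 1. HOXA13, the HOXA gene of the same paralogue group as HOXB13, had a promoter peak in COLO-205 alone (fold enrichment 4.1). HOXC13 had one in DU-145 (3.4) and HOXD13 in SKOV-3 (4.74). A promoter peak in exactly 1 line was found for 15.4% of all protein-coding genes, and with windows of 2 kb HOXB13 was listed in COLO-205 too.

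Of the TALE homeodomain proteins, the PBX, MEIS and PKNOX factors that bind DNA together with HOX proteins, 6 of 9 genes had a promoter peak in COLO-205, DU-145 and OVCAR-3 and 5 of 9 in SKOV-3. These are 66.7% and 55.6% of the list, beside 51.2%, 59.9% and 60.5% of all protein-coding genes in the first 3 lines and 31.6% in SKOV-3. PBX2, PBX3, MEIS2 and PKNOX1 had one in all 4 lines. Of 11 known regulators of HOX clusters, 8 had a promoter peak in OVCAR-3, 7 in COLO-205 and in DU-145, and 6 in SKOV-3, or 72.7%, 63.6% and 54.5% of the list, beside the same shares over all genes. CDX2, an intestinal activator of HOX genes, had one in COLO-205 alone (6.84-fold, −log10 q of 19.2), while CDX1 and CDX4 had none in any line. Of the retinoic acid receptors, RARA and RARG had one in all 4 lines and RARB in OVCAR-3 alone (fold enrichment 6.53). Of the Polycomb complex, SUZ12 had one in all 4 lines, EZH2, its enzyme, in every line but SKOV-3, and EED in every line but COLO-205.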

How the data were processed

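H3K27ac was measured by ChIP-seq in 1 library per line. The authors aligned reads to hg19 (Bowtie2 2.1.0) and called narrow peaks library by library (MACS2 2.1.0.20150603, q-value below 0.001), per the study's methods and the submitters' processing notes. The deposited score is 10 times −log10 q, and the deposited fold enrichment, −log10 p and −log10 q are MACS2's, not scaled between libraries. Merging of peaks less than 350 bp apart is stated, but the lists hold closer neighbours, so peaks were used as deposited.

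Promoters are 1 kb either side of every transcript start in GENCODE v44 lifted to GRCh37, where MIR10A was not found. The fragments over each summit and the local background were recovered as the whole-number pileup that fits the fold enrichment (with a pseudocount of 1) and the −log10 p within 0.001, which held for 99.9% to 100% of peaks and was tested on simulated data. The tag number of a library is its lowest background times 2700000000 genome positions over its smallest peak width. Intervals are exact Poisson intervals.

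The members, gene lists, motifs and naming rule were chosen with earlier results of these data known. The text names all 10 members, their strongest peaks, genes of the interval with a promoter peak, up to 4 genes of each related list and the 5 genes nearest to HOXB13. Where more are named to complete a count, they were chosen after their values were seen. No test between lines was possible. Python 3.11.15, numpy 2.4.6, pandas 2.3.3, scipy 1.17.1, pysam and samtools 1.23.1 were used. Some marker genes and sequences are not reported here.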

Additional observations from a re-analysis of the deposited data

How the results depend on the processing

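No paired analysis was possible because each line has 1 library. With peaks at a −log10 q of at least 5, with tags scaled to SKOV-3, and with windows of 500 bp or 2 kb, no count moved by over 1.5 times, although HOXB13 joined in COLO-205 and HOXB1 in OVCAR-3 at 2 kb, and HOXB3 was lost in OVCAR-3 at 500 bp. At a −log10 q of at least 10, the interval held 15 peaks over 7681 bp in COLO-205, 36 in SKOV-3, 13 over 12982 bp in DU-145 and 8 in OVCAR-3, 3 members (HOXB2, HOXB3 and HOXB7) kept a promoter peak in OVCAR-3, and 6382 protein-coding genes had one in COLO-205. With the 14001 strongest peaks of each list, the interval held 10 peaks over 5324 bp in COLO-205, 7 over 9730 bp in DU-145 and 2 over 1390 bp in OVCAR-3, against 47 in SKOV-3. Promoter peaks were then left at 2 members in OVCAR-3 and at 4400, 7615 and 7645 protein-coding genes in COLO-205, DU-145 and OVCAR-3, and the peaks overlapped by another line numbered 8, 7, 2 and 15, from 24, 16, 10 and 31. Merging left 19 peaks in DU-145 and 31 in SKOV-3. With 1 representative transcript per gene, 4 members had a promoter peak in DU-145 (HOXB5, HOXB6, HOXB7 and HOXB9), against 56.1% of all genes. Of 162 fold enrichments of single members sought under other settings, 7 had no peak left and 150 stayed within the counting interval. With 1 transcript per gene 5 were lost, which were HOXB3 in COLO-205, DU-145 and OVCAR-3, and HOXB2 and HOXB8 in DU-145. The other losses were HOXB3 in OVCAR-3 at 500 bp and HOXB2 in DU-145 with protein-coding transcripts only. Of the values that moved, HOXB7 in SKOV-3 went from 7.2 to 13.2 with merging and with 2 kb windows. With 1 transcript per gene, HOXB3 in SKOV-3 moved to 5.53 and HOXB8 in COLO-205 to 3.44. HOXB3 in DU-145 moved to 2.96 with protein-coding transcripts only. With 1 library per line, the spread between cultures is unknown, and a missing peak depends on the depth and background of that library.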

Other observations

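In a measure chosen after the values were seen, peaks at most 10 kb apart were joined and the joined stretches of each list ranked by their bases under peaks. In SKOV-3 the stretch from HOXB4 to HOXB9 (chr17:46644706-46703622, 36 peaks, 21585 bp) ranked 3 of 8372, and the stretch over HOXB2 (chr17:46615590-46633368, 7 peaks, 4936 bp) ranked 49. The COLO-205 stretch chr17:46628474-46725001 (34 peaks, 14459 bp) ranked 178 of 31766 and the DU-145 stretch chr17:46659118-46691089 (14 peaks, 11589 bp) 366 of 22683. In OVCAR-3 the stretch over HOXB2 and part of HOXB3 (chr17:46618922-46633350, 5 peaks, 3992 bp) ranked 1066 of 24251.

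The nuclear receptor half-site AGGTCA was found around 31.0% of the summits of the interval in DU-145, 30.8% in OVCAR-3, 19.1% in SKOV-3 and 17.2% in COLO-205. Over all peaks of the lists it was 30.6%, 29.6%, 18.3% and 29.2% in the same order.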
